A study of Mus musculus with 20 samples.

Results

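Hair follicle stem cells in anagen, the growth phase of the hair cycle, were compared between male mice on a high fat diet (HFD) and male mice on a normal diet (ND). The comparison used 4 of the 20 arrays of the series, chosen by their labels: HFD for 3 months and ND for 3 months, both from mice of 5 months of age, and HFD for 4 days and ND for 4 days, both from mice of 2 months of age. Each HFD array was set against the ND array of its own duration, so the 3-month and the 4-day difference share no array. Each condition had 1 anagen array, so a difference at 1 duration has no replicate and carries no p-value. The labels do not say whether an array held cells of 1 mouse or of several, and they do not describe the isolation of the cells. Duration and age change together, so the 2 cannot be told apart. The other 16 arrays were 15 from telogen, the resting phase, and 1 from aged mice of 24 months in anagen.

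Hair follicle stem cells reside in the bulge, the lower end of the permanent part of the follicle, and are mostly quiescent in telogen. At the onset of anagen they divide, driven by Wnt and sonic hedgehog signals and by release from BMP signals, and their progeny rebuild the lower follicle. Dietary fatty acids are ligands of the PPAR family of nuclear receptors, which turn on genes for carrying fatty acids into mitochondria and oxidising them, and cytokines such as interleukin-1 act through NF-kappaB. These are the processes that the gene lists below were drawn from.

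The labels were checked against markers. Of 22 bulge stem cell genes, all 22 were well above background on all 4 arrays, and Krt15, the keratin of bulge cells, had a log2 level of 6.34 in HFD and 5.71 in ND at 3 months, and of 5.96 in HFD and 5.71 in ND at 4 days. Levels here are log2 of a processed probe intensity over the 75th percentile of its array, so they compare arrays and not genes. The mean level of 30 mitosis genes lay between 1.27 and 2.29 on the 4 anagen arrays and between -2.66 and 0.48 on the telogen arrays. The mean of the bulge list lay between 2.96 and 3.11 in anagen and between 3.50 and 4.11 in telogen. Mean levels of 15 genes of the hair lineage and matrix overlapped between phases, at -0.67 to -0.11 in anagen and -1.19 to 0.06 in telogen.

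Between 60.7% and 71.1% of the spots of the 4 arrays were well above background, and the ND 3 months array had the lowest share of all 20. A gene was used where a probe was well above background on all 4 arrays, which left 14347 genes. Every slide was scanned on its own: ND 3 months lay on slide 1, HFD 3 months and ND 4 days on slide 2, and HFD 4 days on slide 3. Within a duration, slide and diet therefore cannot be told apart. The only 2 arrays of unlike diet on 1 slide were HFD 3 months and ND 4 days, which also differ in duration and age, and their difference is given as the slide 2 value beside the main results. Telogen arrays of the same group served as the scale of replicate spread. Between such arrays 21.9% to 40.4% of the genes differed by more than 2-fold, with a median of 30.8% over 15 pairs. The diet differences in anagen lay in that range, at 37.2% of the genes at 3 months and 23.6% at 4 days. With the genes cut into 5 equal classes by level, these shares in the brightest class were 6.93% at 3 months and 3.45% at 4 days, against 5.44% to 22.6% between telogen arrays of a group. In the dimmest class they were 59.7% at 3 months and 27.6% at 4 days, against 25.4% to 47.7%, so the dim genes at 3 months went above the range of the telogen pairs and the bright genes at 4 days below it. Telogen arrays of a group shared a slide, which the anagen arrays of a duration did not.

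**Figure D1:**
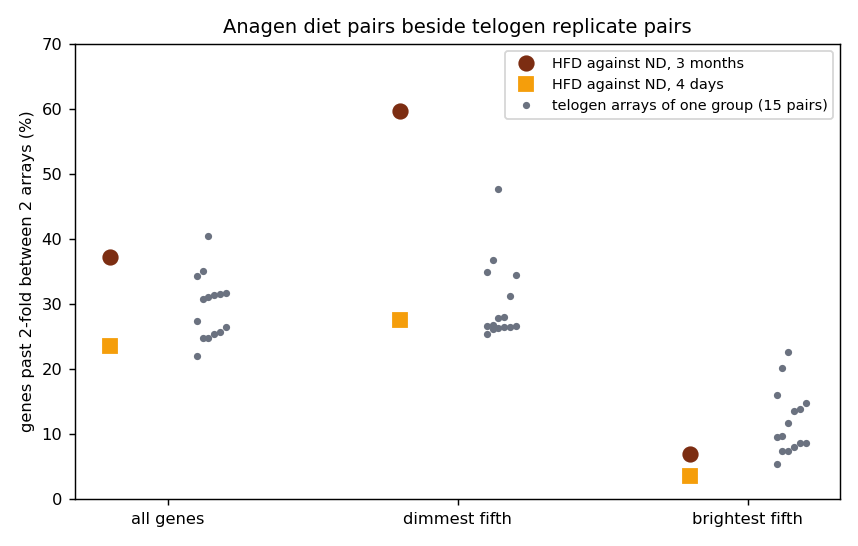
Share of genes (%) that differed by more than 2-fold between HFD and ND in anagen at 3 months and at 4 days, and between telogen arrays of 1 group (15 pairs), for all genes and for the dimmest and brightest of 5 equal classes by anagen level. Over all genes the anagen values of 37.2% and 23.6% sit among the telogen pairs, and the 3-month value of 59.7% in the dimmest class sits above them.

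At 3 months 3231 genes (22.5%) were higher and 2113 (14.7%) lower in HFD by at least 2-fold. At 4 days 1690 (11.8%) were higher and 1693 (11.8%) lower. The same direction past 2-fold at both durations was seen in 353 genes (2.46%) that were higher and 397 (2.77%) that were lower in HFD, and in 318 (2.22%) and 365 (2.54%) of them both HFD arrays lay on the same side of both ND arrays. By any size, both HFD arrays lay above both ND arrays in 17.4% of the genes and below them in 14%, and 58.5% of the genes were above 0 at 3 months and 46% at 4 days. Opposite directions past 2-fold were seen in 453 genes (3.16%) that were higher at 3 months and 422 (2.94%) that were lower. The 875 genes with opposite directions thus outnumbered the 750 that were shared. Across all genes the 2 differences had a Pearson r of -0.045 and a Spearman rho of -0.051, over 14347 genes that are not independent replicates. The arrays of HFD 3 months and ND 4 days shared slide 2, which enters the 2 differences with opposite signs; its part in the correlation was not tested.

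A difference at 3 months only, past 2-fold there and within 0.5 of 0 on the log2 scale at 4 days, was seen in 1666 genes (11.6%) that were higher and 763 (5.32%) that were lower in HFD. The reverse class, 4 days only, held 494 genes (3.44%) that were higher and 483 (3.37%) that were lower. The median gene differed by 0.22 at 3 months and -0.06 at 4 days, and at 3 months the shift was largest in dim genes, with a median of 0.94 in the dimmest class and 0.18 in the brightest. Scaling changed the split at 3 months: 60.5% of the genes past 2-fold were higher in HFD under the main scaling, against 24.3% under median scaling, 47.0% under quantile normalization, 33.8% under cyclic loess and 44.0% under normexp background correction. At 4 days, where the main scaling gave 1690 genes higher and 1693 lower, median scaling gave 65.2% higher. Median scaling moved the median gene to -0.32 at 3 months and to 0.19 at 4 days, so gene lists are also given relative to the median of all genes. Genes just inside the 2-fold limit at 3 months stood at 1.00 and those just outside at 0.99994 on the log2 scale, with no gap between them.

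**Figure D2:**
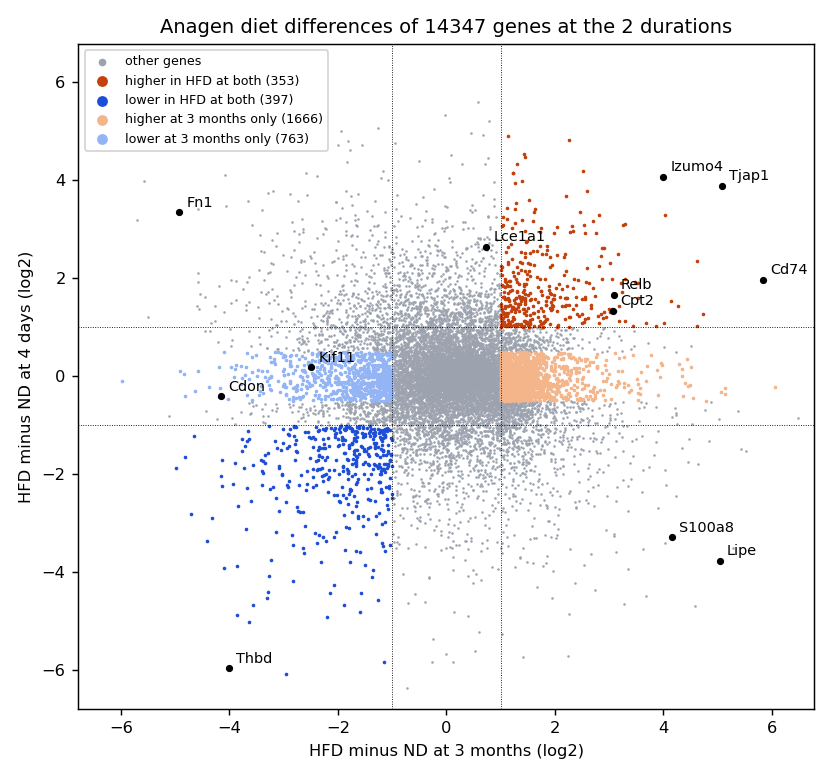
Log2 difference of HFD minus ND in anagen at 3 months (horizontal) and at 4 days (vertical), 1 point per gene for 14347 genes, with dotted lines at 2-fold and labels on 12 genes that the text names. The 353 and 397 genes past 2-fold in the same direction sit in the upper right and lower left corners, and the 1666 and 763 genes of the 3-month class lie along the horizontal axis.

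Among the genes higher at both durations, those with the largest smaller-of-the-2 difference were Izumo4, Tjap1, Tmem229b, Pstpip2, Amacr, Tango2, Smarcd3, Tspan17, Card6 and Scube2. Their differences ranged from 2.60 to 5.08 at 3 months and from 2.62 to 4.08 at 4 days. Tjap1, a protein of tight junctions, had levels of 3.33 in HFD and -1.75 in ND at 3 months, and of 1.08 in HFD and -2.81 in ND at 4 days. Amacr, a racemase of branched-chain fatty acid breakdown, had levels of 1.57 in HFD and -1.24 in ND at 3 months, and of 1.64 in HFD and -1.66 in ND at 4 days. Smarcd3, a subunit of SWI/SNF chromatin remodelling complexes, had 1.39 in HFD and -1.31 in ND at 3 months, and 1.67 in HFD and -1.51 in ND at 4 days, with all 3 of its probes in the same direction. Both HFD arrays lay above both ND arrays for each of these genes, as the rule required. Tjap1 and Pstpip2 had further probes that disagreed: 1 of 3 Tjap1 probes shared the sign at 4 days, and 1 of 2 Pstpip2 probes shared it at each duration. Since the members were picked for size, the spread within telogen groups is the scale to read them by, and its median over these 10 genes was 1.18 (SD, log2).

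Among the genes lower at both durations the corresponding 10 were Thbd, Mbd4, Mfsd4a, Ddx3y, Ankrd24, Epdr1, Nle1, Nos1ap, Zswim6 and Ogdhl. Their differences ranged from -4.42 to -3.26 at 3 months and from -5.95 to -3.37 at 4 days, with a median telogen SD of 1.38. Thbd, thrombomodulin, a receptor for thrombin on the cell surface, had levels of -3.59 in HFD and 0.42 in ND at 3 months, and of -5.00 in HFD and 0.95 in ND at 4 days. Mbd4, a DNA glycosylase that repairs mismatches at methylated CpG sites, had -3.48 in HFD and 0.63 in ND at 3 months, and -2.37 in HFD and 1.55 in ND at 4 days. Both HFD arrays were low and both ND arrays high for each gene, and 1 of 2 Epdr1 probes shared the sign at each duration. Ddx3y, an RNA helicase gene on the Y chromosome, had -3.48 in HFD and 0.37 in ND at 3 months, and -4.55 in HFD and -0.68 in ND at 4 days, in mice that are all labelled male. Other Y-linked genes, looked up after this was seen, did not share the pattern: Eif2s3y differed by 0.06 and -1.62, Uty by 0.47 and -0.97, and Kdm5d by -0.84 and 1.52. Mbd4 also had the widest spread of these 10 in telogen, with an SD of 2.24, and Mfsd4a turned its sign at 3 months when only probes well above background on all 20 arrays were used.

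Averaged over both durations in a limma fit of the 4 arrays with duration as a block, 0 of 14347 genes passed an adjusted p of 0.05, and 693 had an unadjusted p below 0.05. The smallest adjusted p, 0.719, was that of Thbd, with a mean difference of -4.98 ± 0.70 (SE, 2 arrays per diet), lower in HFD at both durations. The fit has 1 residual degree of freedom before moderation, and 95% intervals reached 1.48 to either side of the difference for the median gene, on the log2 scale. A limma fit over all 20 arrays, which takes the spread from telogen, called 1 gene, Gm20744, with an adjusted p of 0.0366.

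Genes of fatty acid oxidation and PPAR targets were higher in HFD at both durations more often than lower. Of 26 measured members, 9 were higher and 2 lower past 2-fold at 3 months, and 5 were higher and 2 lower at 4 days, beside 22.5% and 14.7% of all genes at 3 months and 11.8% in each direction at 4 days. The median member differed by 0.50 at 3 months and 0.37 at 4 days, against 0.22 and -0.06 for all genes. In 13 members the difference was above 0 at both durations and in 2 it was below 0 at both, against 25.8% and 21.4% of all genes. The mean level of the list was 1.60 in HFD and 0.88 in ND at 3 months, and 1.12 in HFD and 0.77 in ND at 4 days. Both HFD arrays lay above both ND arrays. The same was seen for the means of glycolysis, p53 targets and senescence, outer root sheath keratins, NADPH oxidases and red blood cell markers. The SD of the mean of the oxidation list within telogen groups, whose arrays shared a slide, was 0.08. Its level on single telogen arrays ranged from 0.69 to 1.33. The aged anagen array, at 2.09, was higher still, and in telogen the mean level was also higher in HFD, at 1.097 in HFD and 0.878 in ND at 3 months, and 0.96 in HFD and 0.76 in ND at 4 days, although the median member there differed by -0.03 and 0.03. Whether the difference in anagen exceeds that in telogen was not tested.

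Members with large average differences act in the carnitine shuttle of the mitochondrion. Cpt2, which turns acylcarnitine back into acyl-CoA at the inner mitochondrial membrane, had levels of 1.95 in HFD and -1.12 in ND at 3 months, and of -0.29 in HFD and -1.63 in ND at 4 days. Slc25a20, the carnitine-acylcarnitine carrier, had 1.31 in HFD and -1.69 in ND at 3 months, and 0.04 in HFD and -1.34 in ND at 4 days. In both genes the HFD 3 months array was the highest of the 4 and both HFD arrays lay above both ND arrays. The differences were 3.06 and 1.34 for Cpt2 and 3.00 and 1.38 for Slc25a20, at 3 months and 4 days in that order. Neither passed limma's test over the 4 arrays, with an adjusted p of 0.891 for each. Cpt2 had 2 probes, of which 1 shared the sign at 3 months.

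Angptl4, a secreted inhibitor of lipoprotein lipase and a target of PPARs, had levels of 0.58 in HFD and -2.33 in ND at 3 months, and of -0.05 in HFD and -1.03 in ND at 4 days. Its arrays did not overlap between diets, and its differences of 2.91 and 0.98 were past the 2-fold limit at 3 months and just under it at 4 days. Hadha, a subunit of the mitochondrial trifunctional protein, named here after its values were seen, was also higher past 2-fold at both durations, with differences of 1.26 at 3 months and 1.37 at 4 days. Crat, carnitine acetyltransferase, was among the members that departed most between durations, at 0.44 at 3 months and -1.58 at 4 days. Pparg, the receptor, differed by 0.16 at 3 months and -1.20 at 4 days, so it was lower in HFD past 2-fold at 4 days. In the slide 2 comparison, which shares the HFD 3 months array, 9 members were higher past 2-fold and 3 lower, against 13.2% and 13.6% of all genes, with a median of 0.67 against 0.18. Relative to all genes the 3-month median was 0.28, and it was 0.09 under quantile normalization and 0.38 under cyclic loess; before that adjustment it was -0.04 under median scaling.

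**Figure D3:**
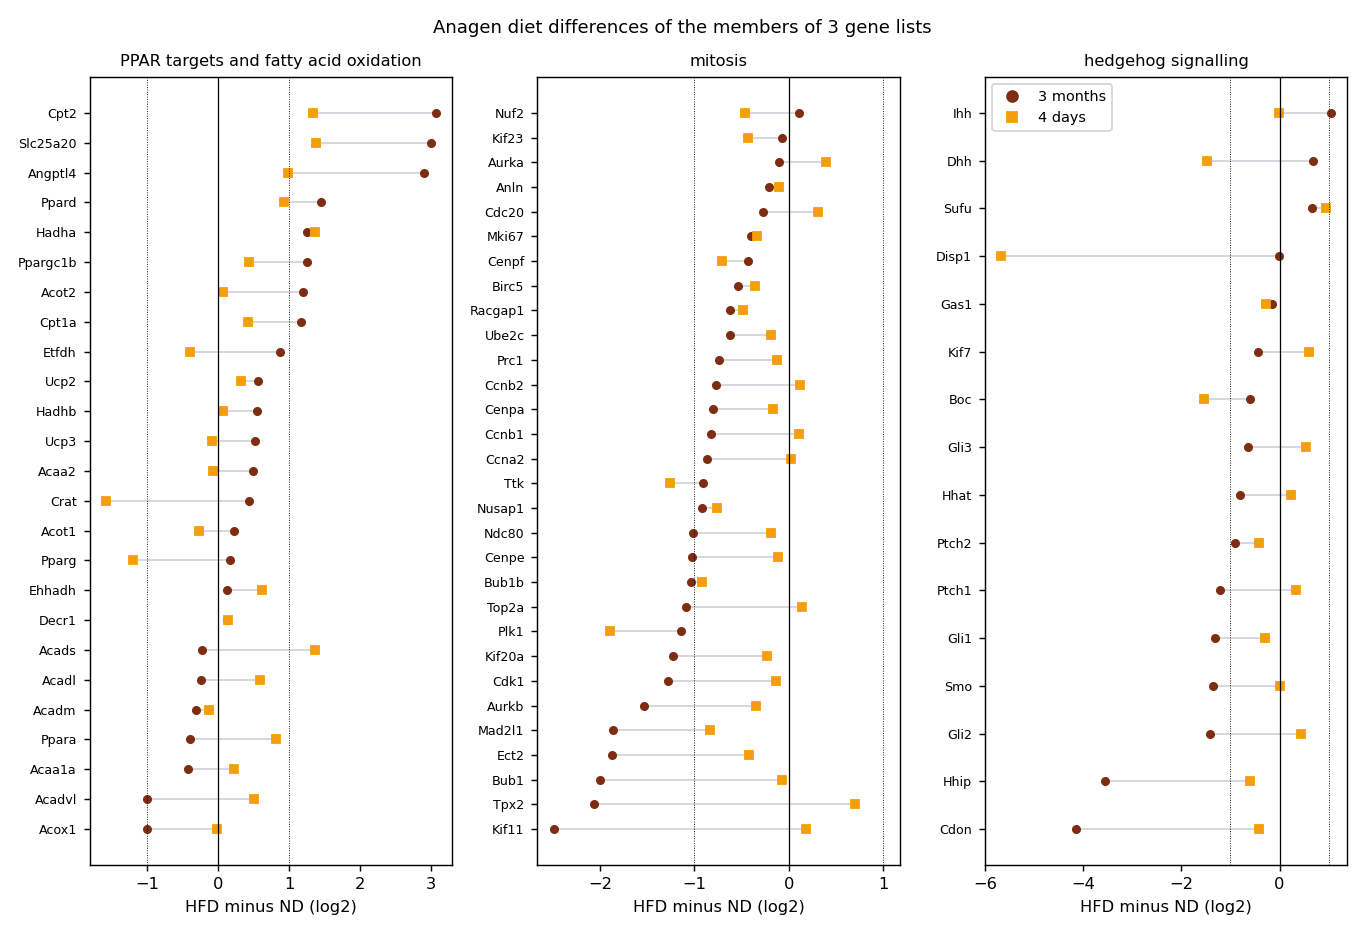
Log2 difference of HFD minus ND in anagen at 3 months (circles) and at 4 days (squares) for measured members of 3 gene lists (1 is not shown), sorted by the 3-month value, with dotted lines at 2-fold. Cpt2, Slc25a20 and Angptl4 lie above 0 at both durations, while most mitosis genes lie below 0 at 3 months and closer to 0 at 4 days.

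Other lipid genes did not share one direction across lists and durations. Of 23 measured genes of lipid droplets and lipid uptake, 4 were higher and 4 lower past 2-fold at 3 months, and 1 was higher and 7 lower at 4 days. The shares of all genes were 22.5% higher and 14.7% lower at 3 months, and 11.8% in each direction at 4 days. Fabp3, a fatty acid binding protein, had levels of -2.65 in HFD and -0.44 in ND at 3 months, and of -2.78 in HFD and -1.13 in ND at 4 days. Fitm2, which shapes lipid droplets at the endoplasmic reticulum, had -2.31 in HFD and 0.07 in ND at 3 months, and -1.09 in HFD and 0.62 in ND at 4 days. Both genes were lower in HFD past 2-fold at both durations without overlap. Lipe, hormone-sensitive lipase, stood at 1.26 in HFD and -3.78 in ND at 3 months, but at -2.82 in HFD and 0.94 in ND at 4 days, the widest departure between durations of any named gene. Plin2, the coat protein of most lipid droplets, differed by -0.09 at 3 months and 0.70 at 4 days, and Scd1, the desaturase that makes oleate, by -0.67 and -0.50. Cd36, a fatty acid transporter, was well above background on 3 of the 4 arrays and is not compared. Of 27 genes of fatty acid synthesis 3 were higher and 2 lower at 3 months, and of 23 genes of cholesterol synthesis 2 were higher and 3 lower. These counts stand beside the same 3-month shares of all genes. By any size, 18 of the 23 cholesterol genes were below 0 at 3 months, against 41.5% of all genes, and 10 at 4 days, against 54%. Their medians were -0.26 and 0.03, and the first was -0.49 relative to all genes and negative under each scaling. The mean of that list was 1.62 in HFD and 1.87 in ND at 3 months, with a telogen SD of 0.42.

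Genes of mitosis were lower in HFD at 3 months. Of 30 measured genes, 13 were lower and 0 higher past 2-fold at 3 months, and 2 were lower and 0 higher at 4 days, against 14.7% of all genes lower at 3 months and 11.8% at 4 days. In 21 of them the difference was below 0 at both durations and in 0 above 0 at both, against 21.4% and 25.8% of all genes. The median gene differed by -0.89 at 3 months and -0.19 at 4 days, and relative to all genes by -1.12 and -0.13. The mean level was 1.27 in HFD and 2.22 in ND at 3 months, and 2.01 in HFD and 2.29 in ND at 4 days, with the HFD 3 months array lowest. The difference of the means at 3 months was within the spread of telogen groups, whose SD for this list was 1.16, and the aged anagen array stood at 1.30. The direction at 3 months held under each scaling, with 12 to 23 genes lower past 2-fold. In the slide 2 comparison, which uses the same HFD 3 months array, 13 genes were lower and 0 higher, against 13.6% and 13.2% of all genes. Under median scaling the 4-day median turned to 0.06.

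Kif11, a motor that separates the spindle poles, had levels of -0.18 in HFD and 2.32 in ND at 3 months, and of 2.46 in HFD and 2.27 in ND at 4 days. Ect2, an exchange factor that positions the cleavage furrow, had 0.43 in HFD and 2.30 in ND at 3 months, and 2.33 in HFD and 2.75 in ND at 4 days. For both genes the HFD 3 months array stood alone below the other 3, although 1 of 2 Ect2 probes shared the sign at 3 months. Plk1, a kinase of mitotic entry, had 0.37 in HFD and 1.51 in ND at 3 months, and 0.14 in HFD and 2.04 in ND at 4 days, and Mad2l1, a protein of the spindle checkpoint, had 1.75 in HFD and 3.61 in ND at 3 months, and 2.71 in HFD and 3.55 in ND at 4 days. In these 2 genes both HFD arrays lay below both ND arrays, and Plk1 was the only one of the list past 2-fold at both durations. Mki67, the proliferation marker, differed by -0.40 and -0.34, also without overlap. The spread within telogen groups exceeded most of these differences, with an SD of 2.58 for Kif11, 3.32 for Ect2 and 1.20 for Plk1.

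Mitotic genes are known to share 2 promoter elements, the CCAAT box bound by NF-Y and the CHR element bound by the DREAM and MuvB complexes, and the 250 bases before the start of 3 of the genes above are shown because all 3 were lower in HFD past 2-fold at 3 months. The sequences are those of RefSeq on GRCm38.p6, 5′ to 3′ on the gene's own strand, with matches to CCAAT or ATTGG (the CCAAT box on either strand) and to TTTGAA or TTCAAA (the CHR element) in capitals.
Kif11, chr19:37376132-37376381, plus strand: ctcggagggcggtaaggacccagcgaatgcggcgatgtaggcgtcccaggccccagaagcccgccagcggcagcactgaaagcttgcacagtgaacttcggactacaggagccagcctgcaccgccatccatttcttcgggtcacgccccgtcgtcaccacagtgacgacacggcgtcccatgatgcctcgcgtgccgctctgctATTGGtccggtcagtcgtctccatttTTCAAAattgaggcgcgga
Ect2, chr3:27153879-27154128, minus strand: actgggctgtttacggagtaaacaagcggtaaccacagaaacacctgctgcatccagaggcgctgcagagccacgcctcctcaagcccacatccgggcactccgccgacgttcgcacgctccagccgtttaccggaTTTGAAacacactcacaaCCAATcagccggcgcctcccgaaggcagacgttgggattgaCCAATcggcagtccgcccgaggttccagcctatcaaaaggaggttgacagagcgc
Plk1, chr7:122159185-122159434, plus strand: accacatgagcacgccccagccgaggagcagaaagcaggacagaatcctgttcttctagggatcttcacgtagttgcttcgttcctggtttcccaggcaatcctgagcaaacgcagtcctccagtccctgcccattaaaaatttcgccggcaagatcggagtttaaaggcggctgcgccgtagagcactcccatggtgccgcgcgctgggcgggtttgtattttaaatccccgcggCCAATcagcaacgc

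Within these 250 bases Kif11 held 1 CCAAT box and 1 CHR match, Ect2 held 2 and 1, and Plk1 held 1 and 0. Of the 26 measured mitosis genes with a promoter in the table, 20 held a CCAAT box and 8 a CHR match, against 34.5% and 16.3% of 27025 promoters of the same length, with 1 promoter per gene. Of the 10 such genes that were lower past 2-fold at 3 months, 8 held a CCAAT box and 4 a CHR match. The 2 motifs do not overlap in letters, and a match is a description of the sequence, not a bound site.

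DNA replication genes showed the same order at 3 months. Of 33 measured genes 7 were lower and 1 higher past 2-fold at 3 months, against 1 lower and 2 higher at 4 days, beside 14.7% of all genes lower at 3 months, so the count lies nearer to the background than that of mitosis. The median gene differed by -0.62 at 3 months and 0.03 at 4 days, and by -0.84 and 0.09 relative to all genes. Pola1, the catalytic subunit of DNA polymerase alpha, had levels of 0.21 in HFD and 1.99 in ND at 3 months, and of 1.20 in HFD and 1.79 in ND at 4 days. Both HFD arrays lay below both ND arrays, although 1 of its 2 probes shared the sign at 3 months. Orc1, which marks origins of replication, had -1.93 in HFD and 1.51 in ND at 3 months, and 0.18 in HFD and -0.62 in ND at 4 days, so HFD was lower at 3 months and higher at 4 days. Clspn, an adaptor of the replication checkpoint and one of the largest 3-month differences, had -2.37 in HFD and 2.47 in ND at 3 months, and 0.84 in HFD and 0.80 in ND at 4 days, with 1 of its 2 probes sharing the sign at 3 months. In the slide 2 comparison 11 genes of the list were lower and 1 higher, against 13.6% of all genes lower, and the telogen SD of the list mean was 0.57, and the mean was 1.73 in HFD and 2.34 in ND at 3 months, and 2.32 in HFD and 2.29 in ND at 4 days.

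Hedgehog genes were also lower in HFD at 3 months. Of 16 measured genes, 6 were lower and 1 higher past 2-fold at 3 months, and 3 were lower and 0 higher at 4 days, against 14.7% of all genes lower at 3 months and 11.8% at 4 days. The median gene differed by -0.72 at 3 months and -0.14 at 4 days, and by -0.95 and -0.09 relative to all genes. The mean level was -0.14 in HFD and 0.75 in ND at 3 months, and 0.32 in HFD and 0.79 in ND at 4 days, so both HFD arrays lay below both ND arrays, with a telogen SD of 0.26. At 4 days that gap came mostly from Disp1: without it the mean was 0.59 in HFD and 0.71 in ND, and that gap of -0.13 is smaller than the SD, whereas at 3 months it was -0.67 without Cdon, the largest member there. Both HFD means also lay below both ND means for the mitosis, BMP and TGF-beta, quiescence and endothelial lists. For the hedgehog list the aged anagen array stood at -0.30, below all 4. The 3-month median was negative under each scaling, at -0.72 to -1.26, and 7 members were lower and 1 higher in the slide 2 comparison, where 13.6% of all genes were lower. At 4 days the median turned to 0.10 under median scaling.

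The ligand Shh was well above background on 1 of the 4 arrays and is not compared. Its receptor Ptch1, itself a target gene, had levels of 3.16 in HFD and 4.37 in ND at 3 months, and of 4.16 in HFD and 3.81 in ND at 4 days. Smo, the transducer that Ptch1 holds back, had -0.91 in HFD and 0.45 in ND at 3 months, and 0.47 in HFD and 0.46 in ND at 4 days. Both were lower in HFD at 3 months only, with the HFD 3 months array below the other 3, and 1 of the 2 Ptch1 probes shared the sign at each duration. Gli1, the transcription factor that reports pathway activity, had 1.45 in HFD and 2.77 in ND at 3 months, and 1.82 in HFD and 2.10 in ND at 4 days. Gli2, the main activator, had 0.75 in HFD and 2.16 in ND at 3 months, and 2.25 in HFD and 1.83 in ND at 4 days. Gli1 was lower in HFD at both durations without overlap, and Gli2 at 3 months only. Hhip, a decoy receptor and target gene, had -4.63 in HFD and -1.07 in ND at 3 months, and -1.76 in HFD and -1.15 in ND at 4 days. Cdon, a co-receptor, had the largest difference of the list at 3 months, -4.16, but 1 of its 3 probes shared that sign. Disp1, which releases the ligand, differed by -5.67 at 4 days and by less than 0.01 at 3 months. In telogen the differences of Gli1 were 0.28 at 3 months and 0.52 at 4 days, and those of Ptch1 0.22 and 0.44.

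The largest differences of the 3-month class were Slx1b, Myh8, Pla2g6, Btnl4, Cxxc4, Chek2, Spire2, Prkcz, Megf11 and Mpp2 among the genes that were higher, at 4.34 to 5.14. For Slx1b 1 of 2 probes shared the sign at 3 months. The telogen SD of these 10 genes had a median of 1.31 and was highest, at 2.42, for Chek2. The whole class of higher genes was dim, with a median level of -1.86 against 0.28 for all genes. Chek2, a kinase of the DNA damage checkpoint, had levels of 1.23 in HFD and -3.55 in ND at 3 months, and of -1.47 in HFD and -0.98 in ND at 4 days. Prkcz, an atypical protein kinase C of cell polarity, had 1.57 in HFD and -2.89 in ND at 3 months, and 1.17 in HFD and 1.36 in ND at 4 days. For Prkcz the ND 3 months array alone stood apart from the other 3, while for Chek2 the HFD 3 months array was high and the ND 3 months array low. Among the genes that were lower the 10 included Nyap1, Rhobtb3, Clspn, Ercc6, Gabbr1, Dus2, Gk, Gimap9 and Myb, at -5.98 to -3.92, and for Nyap1 1 of 2 probes shared the sign. The median telogen SD of the 10 lower genes was 1.57. Gk, glycerol kinase, had levels of -4.06 in HFD and 0.13 in ND at 3 months. At 4 days it had -0.80 in HFD and -0.99 in ND. Over the whole class, the HFD 3 months array stood at least 2-fold below the other 3 arrays in 52.2% of the genes that were lower, and the ND 3 months array stood at least 2-fold above its other 3 in 21.8%. Of those that were higher, the HFD 3 months array stood at least 2-fold above the other 3 in 18.7%, and the ND 3 months array, the one with the fewest spots above background, stood at least 2-fold below them in 22.1%.

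Bulge stem cell genes differed little as a group. Of 22 measured genes, 2 were higher and 3 lower past 2-fold at 3 months, and 0 were higher and 1 lower at 4 days. The shares of all genes were 22.5% higher and 14.7% lower at 3 months, and 11.8% in each direction at 4 days. The median member of the list differed by 0.09 at both durations. The 3-month median was -0.45 to -0.05 under the other scalings. The mean level was 3.10 in HFD and 2.96 in ND at 3 months, and 3.08 in HFD and 3.11 in ND at 4 days, within or near the telogen SD of 0.12. Col17a1, the hemidesmosomal collagen that anchors these cells, had levels of 6.57 in HFD and 5.75 in ND at 3 months, and of 6.18 in HFD and 5.76 in ND at 4 days. Cd34, a surface marker of bulge cells in mice, had 3.36 in HFD and 2.65 in ND at 3 months, and 3.37 in HFD and 3.08 in ND at 4 days. Sox9, a transcription factor of the stem cells, had 5.40 in HFD and 4.58 in ND at 3 months, and 4.82 in HFD and 4.67 in ND at 4 days. In these genes and in Krt15 both HFD arrays lay above both ND arrays, by less than 2-fold, as in 17.4% of all genes, and 1 of 2 probes of Cd34 and of Sox9 shared the sign at 4 days. Other members were lower in HFD without overlap: Lgr6, a stem cell receptor of the upper follicle, differed by -1.26 and -0.61, and Tcf3 by -0.08 and -1.15. Tcf3 is the symbol of the gene for the transcription factor E2A. The bulge factor once called by that name, Tcf7l1, was not on the list. Without Tcf3 the mean of the list at 4 days was 3.24 in HFD and 3.21 in ND. Cd200, a surface protein of bulge cells, differed by -1.44 at 3 months and 0.10 at 4 days. In all, 9 members were above 0 at both durations and 5 below 0 at both, against 25.8% and 21.4% of all genes. Lgr5, a Wnt co-receptor of active stem cells, differed by -0.63 and -0.30, and Lhx2 by 0.17 and -0.40. Ltbp2, a matrix protein, differed by 2.92 at 3 months and -0.48 at 4 days.

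Of 26 genes of the basement membrane and adhesion, 1 was higher and 3 lower past 2-fold at 3 months. At 4 days 3 were higher and 0 lower. Among all genes 22.5% were higher and 14.7% lower at 3 months, and 11.8% in each direction at 4 days. The list had medians of 0.45 and 0.25, the first of which turned to -0.09 under median scaling. Npnt, a ligand of integrin in the bulge basement membrane, had levels of 2.02 in HFD and 1.17 in ND at 3 months, and of 1.82 in HFD and 0.66 in ND at 4 days. Plec, plectin, which ties keratin filaments to hemidesmosomes, had 4.71 in HFD and 3.90 in ND at 3 months, and 4.22 in HFD and 3.38 in ND at 4 days. Both were higher in HFD without overlap. Fn1, fibronectin, went the opposite way at the 2 durations, at -4.93 and 3.35.

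Epidermal differentiation genes were higher in HFD at 4 days and not at 3 months. Of 27 measured genes, 9 were higher and 0 lower past 2-fold at 4 days, and 1 was higher and 4 lower at 3 months. Among all genes 11.8% were higher and 11.8% lower at 4 days, and 22.5% were higher and 14.7% lower at 3 months. The median member of the list differed by 0.35 at 4 days and -0.11 at 3 months. Lor, loricrin, the main protein of the cornified envelope, had levels of 4.07 in HFD and 4.36 in ND at 3 months, and of 5.18 in HFD and 3.99 in ND at 4 days. Lce1a1, a late envelope protein, had 0.35 in HFD and -0.38 in ND at 3 months, and 1.92 in HFD and -0.72 in ND at 4 days. The HFD 4 days array was the highest of the 4 for both. Tgm1, the crosslinking enzyme of the envelope, had -3.20 in HFD and 0.78 in ND at 3 months, and 1.16 in HFD and 0.54 in ND at 4 days, so the HFD 3 months array alone was low. At 4 days 8 to 10 genes were higher past 2-fold under the other scalings and 0 lower. The early keratins Krt1 and Krt10 differed by less than 2-fold at both durations. The mean of the list, 2.86 in HFD and 2.26 in ND at 4 days, differed by less than its SD within telogen groups, 0.68, and the part of differentiated cells in the samples was not tested.

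**Figure D4:**
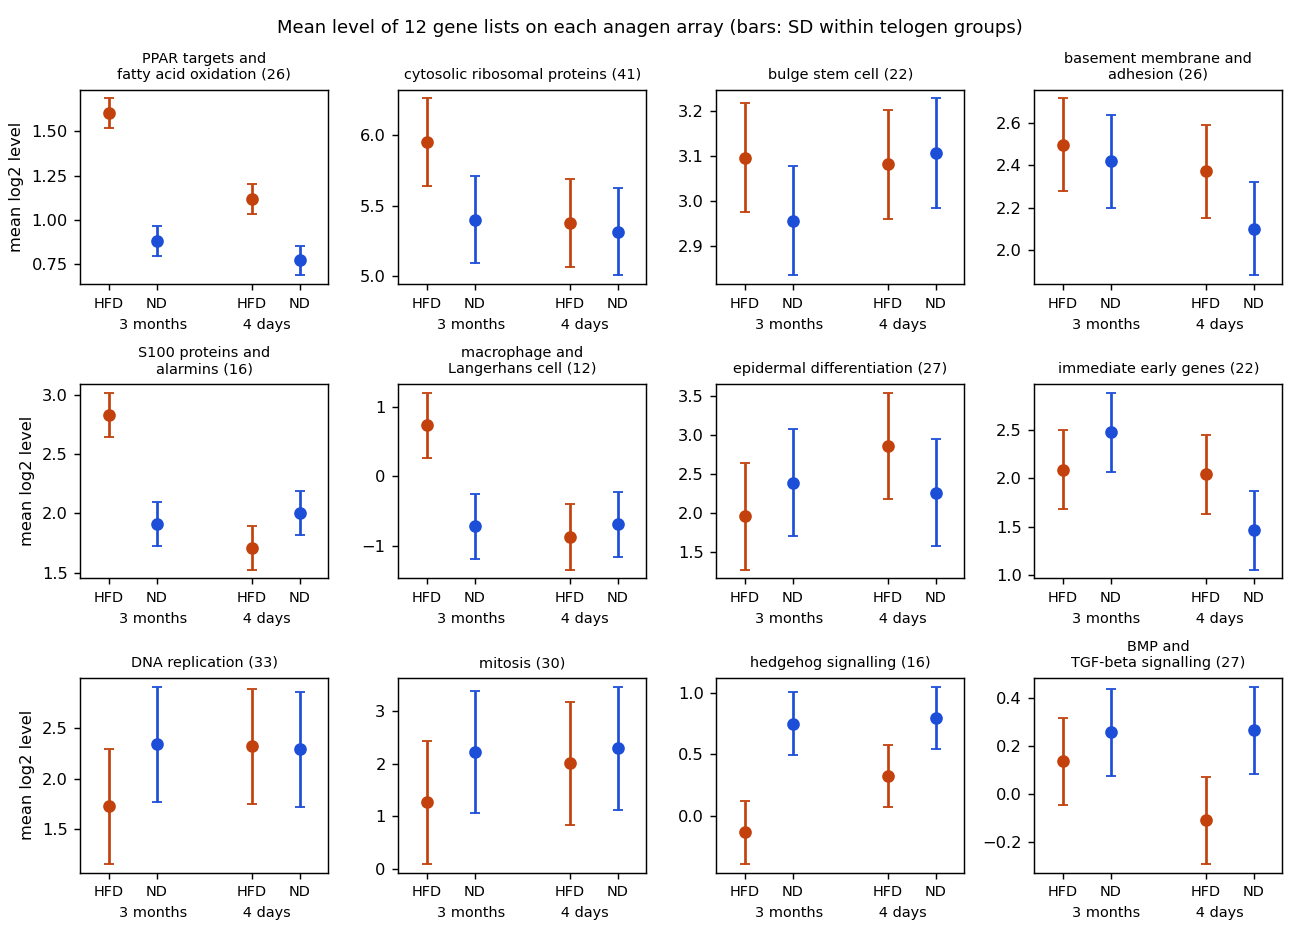
Mean log2 level of 12 gene lists on the HFD and ND arrays of each duration, with the number of measured genes in each title and bars of 1 SD within telogen groups. The oxidation list is higher and the hedgehog list lower in HFD at both durations by more than that SD, the hedgehog list at 4 days only with Disp1 included, whereas the mitosis and epidermal differentiation lists differ by less than it.

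Interleukin-1 genes differed one by one, with no shared direction. Il1a was well above background on 0 of the 4 arrays and is not compared. Il1b, the secreted cytokine, had levels of -0.96 in HFD and -3.01 in ND at 3 months, and of -1.04 in HFD and -2.02 in ND at 4 days. Il1rn, the antagonist of the receptor, had 0.36 in HFD and 1.80 in ND at 3 months, and -1.90 in HFD and 1.01 in ND at 4 days. Irak3, an inhibitory kinase of the pathway, had -2.49 in HFD and 2.496 in ND at 3 months, and -1.33 in HFD and 0.55 in ND at 4 days. Il1b was thus higher and the 2 inhibitors lower in HFD at both durations without overlap, although 1 of 2 Il1rn probes shared the sign at 4 days and the 4-day difference of Irak3 turned to 0.13 in the mean over its 3 probes. The receptor Il1r1 had -0.21 in HFD and -2.65 in ND at 3 months, but -3.23 in HFD and -0.69 in ND at 4 days, and the decoy receptor Il1r2 had 1.15 in HFD and -1.68 in ND at 3 months, and -1.25 in HFD and 0.32 in ND at 4 days. Both receptors were higher in HFD at 3 months and lower at 4 days. Of the 14 measured genes of the family 3 were higher and 5 lower at 3 months, and 4 were higher and 6 lower at 4 days. Among all genes 22.5% were higher and 14.7% lower at 3 months, and 11.8% in each direction at 4 days.

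Relb, a subunit of NF-kappaB, had levels of 1.08 in HFD and -2.002 in ND at 3 months, and of -1.44 in HFD and -3.10 in ND at 4 days. Both probes of Relb were higher in HFD at both durations, and it was the only shared gene among 21 of the NF-kappaB list. Of that list 5 were higher and 2 lower at 3 months, and 3 were higher and 6 lower at 4 days. Among all genes 22.5% were higher and 14.7% lower at 3 months, and 11.8% in each direction at 4 days. The medians of the list were 0.28 and -0.38, and the 3-month one turned to -0.26 under median scaling. Nfkbia, the inhibitor that NF-kappaB itself induces, differed by 0.70 and -0.74. S100 proteins and alarmins, 16 measured, had medians of 0.72 at 3 months and 0.00 at 4 days. Past 2-fold, 3 were higher and 0 lower at 3 months and 0 higher and 2 lower at 4 days, beside the same shares of all genes. S100a8, a calcium-binding protein of neutrophils and stressed keratinocytes, had -0.39 in HFD and -4.55 in ND at 3 months, but -4.18 in HFD and -0.89 in ND at 4 days.

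Several marker lists of other cells had medians above 0 at 3 months, as did dim genes at large, of which 46.8% in the dimmest class were higher past 2-fold with a median of 0.94. Of 20 macrophage and Langerhans cell markers 12 genes were compared, of which 8 were higher and 1 lower at 3 months, and 1 was higher and 1 lower at 4 days, with medians of 1.25 and -0.14. Under the other scalings 4 to 6 were higher at 3 months, and the 4-day median turned to 0.11 under median scaling. The summed linear level of all 20 markers, with those not well above background included, was 212 in HFD and 143 in ND at 3 months. At 4 days that sum was 119 in HFD and 129 in ND, against 122 to 241 in telogen. The sums below likewise take in every listed marker with a probe. A linear sum follows its brightest probes, so none of these sums measures the number of cells. The macrophage and Langerhans cell list also holds Epcam, which epithelial cells express. The mean log2 level of its 12 compared genes was 0.73 in HFD and -0.72 in ND at 3 months, and -0.87 in HFD and -0.69 in ND at 4 days. Cd74, the invariant chain of MHC class II, had levels of 2.90 in HFD and -2.93 in ND at 3 months, and of 1.09 in HFD and -0.89 in ND at 4 days. The defining markers Adgre1 and Ptprc were not well above background on any of the 4 arrays. The summed level of 16 T and NK cell markers was 13.05 in HFD and 5.45 in ND at 3 months, and 5.15 in HFD and 7.17 in ND at 4 days, with Gzmb and Ptprc not above background on any. The adipocyte markers summed to 6.54 in HFD and 2.14 in ND at 3 months, and to 2.22 in HFD and 6.14 in ND at 4 days, and the 16 sebaceous gland and upper follicle markers to 80.5 in HFD and 71.0 in ND at 3 months, and to 63.3 in HFD and 60.0 in ND at 4 days. Fibroblast markers summed to 34.7 in HFD and 24.2 in ND at 3 months, and to 25.1 in HFD and 23.2 in ND at 4 days, with Lum, Dpt and Fap not above background on any. Melanocyte markers, 5 compared, had medians of 1.36 and -0.01, muscle markers, 9 compared, 0.90 and -0.41, and endothelial markers, 4 compared, -0.74 and -0.16. The T and NK cell markers, 9 compared, had medians of 0.91 and -0.53, and the first turned to -0.026 under cyclic loess. On slide 2 the medians were 0.80 for the macrophage and Langerhans cell list, 0.064 for T and NK cells, 0.47 for muscle, 0.38 for adipocytes and -0.12 for melanocytes, against 0.18 for all genes. The part of such cells in the results was not tested, and in bulk RNA fewer cells of a type and less RNA per cell cannot be told apart.

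Among the remaining lists, ribosomal proteins were higher in HFD at 3 months by a small and even amount under the main scaling. Not set relative to all genes, their 3-month median was 0.006 under median scaling, 0.09 under quantile normalization and 0.08 under normexp. In the brightest class of all genes 6.93% passed 2-fold at 3 months and 3.45% at 4 days. Of 41 measured, 0 passed 2-fold, 28 were above 0 at both durations and 0 below 0 at both, with medians of 0.55 and 0.05; the 3-month median was 0.32 relative to all genes and 0.07 so under quantile normalization. Of 35 genes of oxidative phosphorylation, 0 passed 2-fold at either duration, with medians of 0.20 and -0.01, the first of which turned to -0.34 under median scaling. Of 23 glycolysis genes, 3 were higher and 2 lower at 3 months, and 10 were above 0 at both durations against 2 below. Among all genes 22.5% were higher and 14.7% lower at 3 months, and 25.8% were above and 21.4% below 0 at both durations. The BMP and TGF-beta list, 27 measured, had 6 higher and 5 lower at 3 months, beside the 22.5% and 14.7% of all genes. At 4 days 0 of the list were higher and 6 lower, against 11.8% of all genes in each direction. Its medians were -0.31 and -0.20, and the 4-day median turned to 0.04 under median scaling. Id3, a target of BMP signals, had levels of -0.16 in HFD and 0.88 in ND at 3 months, and of 0.18 in HFD and 0.96 in ND at 4 days, lower in HFD without overlap. Txnip, a negative regulator of thioredoxin that glucose induces, had 3.92 in HFD and 2.61 in ND at 3 months, and 3.80 in HFD and 2.77 in ND at 4 days, higher in HFD without overlap, with 1 of 2 probes sharing the sign at 4 days. Krt80, a keratin of differentiating epithelia, had 3.32 in HFD and 2.21 in ND at 3 months, and 3.10 in HFD and 1.24 in ND at 4 days, with both probes in the same direction.

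Immediate early genes, 22 measured, were lower in 5 and higher in 0 past 2-fold at 3 months, against 4 higher and 2 lower at 4 days, with medians of -0.18 and 0.49. The shares of all genes were 22.5% higher and 14.7% lower at 3 months, and 11.8% in each direction at 4 days. Nr4a1, a nuclear receptor that stimuli induce within minutes to hours, had levels of -1.09 in HFD and 1.48 in ND at 3 months, and of 1.1002 in HFD and -2.61 in ND at 4 days, so its direction was opposite at the durations. Of 21 p53 targets and senescence genes, 5 were higher and 1 lower at 3 months, and 5 were higher and 3 lower at 4 days. The 5 higher at 3 months lie near the 22.5% of all genes. Fas, the death receptor, had -2.35 in HFD and -4.28 in ND at 3 months, and -2.92 in HFD and -4.59 in ND at 4 days, and Eda2r, a p53-induced receptor, had 0.53 in HFD and -0.96 in ND at 3 months, and 0.24 in HFD and -2.51 in ND at 4 days. Both were higher in HFD without overlap. Btg2, an antiproliferative target of p53, was lower in HFD, at -0.78 in HFD and 0.63 in ND at 3 months, and -1.56 in HFD and 0.07 in ND at 4 days. Arntl, the activator of the circadian clock also known as Bmal1, differed by 1.499 and 1.66, with 1 of its 2 probes sharing the sign at 3 months.

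In the other lists the counts in each direction stand against 22.5% of all genes higher and 14.7% lower at 3 months. Wnt genes, 23 measured, were higher in 4 and lower in 3 at 3 months, and Notch genes, 12 measured, higher in 2 and lower in 1. Of 24 DNA repair genes 3 were higher and 4 lower, with a median of -0.44 at 3 months and 0.07 at 4 days. Antioxidant genes, 27 measured, had 1 higher and 2 lower, and Hmox1, heme oxygenase, differed by -1.06 at 3 months and 1.03 at 4 days. Unfolded protein response genes were higher in 4 and lower in 1 of 24, heat shock genes higher in 0 and lower in 2 of 22, interferon response genes higher in 4 and lower in 2 of 16, and clock genes higher in 4 and lower in 3 of 19, all at 3 months. Quiescence genes and CDK inhibitors were higher in 2 and lower in 4 of 17, and 7 NADPH oxidase genes were all within 2-fold, at 3 months.

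The anagen differences were set beside telogen, where each group had 3 arrays. Across genes the diet difference in anagen had an r of -0.001 with that in telogen at 3 months and of -0.021 at 4 days, as a description over 14347 genes. The telogen difference averaged over durations was above 0 in 52.7% of the 353 genes that were higher in anagen at both durations and in 51.4% of the 397 that were lower, against 47.4% of all genes. In telogen limma called 0 of 14347 genes, with 569 at an unadjusted p below 0.05 and a smallest adjusted p of 0.927, that of Bhlhe41. The 5 shared genes with the smallest telogen p and the same sign there were Coq4, Anks1b, Lrrc75a, Tbcd and Tmem268. Lrrc75a had levels of -1.42 in HFD and -3.75 in ND at 3 months, and of -0.81 in HFD and -2.19 in ND at 4 days, and its telogen difference was 1.75 ± 0.49 (SE, 6 arrays per diet, limma). Coq4, needed for coenzyme Q synthesis, had -1.08 in HFD and -0.06 in ND at 3 months, and -0.87 in HFD and 0.72 in ND at 4 days, and its telogen difference was -1.66 ± 0.44. Since these 5 were picked by their telogen values, they are given as a description.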

How the data were processed

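Total RNA was hybridised to 1-colour Agilent mouse arrays by the authors, per the labels. Spot intensities were background-subtracted and detrended by Feature Extraction 10.7.1.1, per the file headers, with no scaling between arrays. The deposited series table holds a linear signal that matched the processed intensity over the 75th percentile of its array, within 2% for at least 99.998% of probes, with no centring. Its column medians were 0.128 for HFD 3 months, 0.088 for ND 3 months, 0.11 for HFD 4 days and 0.13 for ND 4 days in anagen.

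From the deposited intensities, outlier spots (62 to 159 of 59305 per array) were dropped, spots of a probe averaged, and the log2 value of the 75th percentile of the array subtracted. Probes (56605) were named through their accessions in RefSeq, which gave 32994 with 1 symbol and 23611 unnamed. A gene took its probe with the highest mean among those well above background on all 4 arrays. The number of arrays limits the precision. Differences between single arrays are untested log2 ratios, computed from the authors' intensities. Averages used limma 3.58.1 in R 4.3.3, as a two-sided test adjusted over all genes by Benjamini-Hochberg, with duration, which the labels give, as the block that pairs the arrays. The model was also run on simulated data, with independent genes and the spread of telogen. Those data held no slide effect and no shift in dim genes, so they cannot show how the fit behaves with either. Replicates are separate samples in the labels, with nothing on animals, so p-values may measure technical spread only.

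Named genes were up to 10 per direction with the largest differences among shared genes and among 3-month genes, without predicted names, up to 6 members of each of 43 lists, 5 shared genes by telogen p, and key genes. The members, lists and rule were chosen with earlier results of these data known. Lists were scored by counts, medians and mean levels. Alternatives were other scalings, background correction, filters, probe means, the series table, thresholds, pairings, fits and left-out arrays. The swap of the ND 3 months array for the ND 4 days array of the same slide, list medians not set relative to all genes, and list means without their largest member, were chosen after seeing the data. Some named genes are not reported here.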

Additional observations from a re-analysis of the deposited data

Results flagged for a closer look

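Of the named genes, 20 differed past 2-fold in opposite directions at the 2 durations, with 1 array per condition, so these departures were not tested. The values below are the 3-month minus the 4-day difference of HFD minus ND, on the log2 scale. Higher in HFD at 3 months and lower at 4 days were Lipe (8.80), S100a8 (7.45), Mitf (5.00), Il1r1 (4.99), Il1r2 (4.41), Wnt7a (4.33), Cdkn2b (3.97), Acta1 (3.63), Bmp4 (3.63) and Ctla4 (2.63). The reverse was seen for Hmox1 (-2.09), Hk2 (-2.13), Ovol1 (-2.83), Rbl1 (-3.14), Ciart (-3.73), Axin2 (-3.93), Pole (-4.33), Il1f6 (-4.88), Nr4a1 (-6.28) and Fn1 (-8.28). Part of the naming rule picks the members of a list that depart most between durations, so such genes are over-represented here, and among all genes 875 of 14347 took opposite directions past 2-fold. All 3 probes of Mitf and of Rbl1 and both probes of Fn1 shared the direction of the probe used at both durations, whereas Il1r2 turned to 0.83 at 4 days when only probes well above background on all 20 arrays were used. HFD 3 months and ND 4 days lay on 1 slide, and its part in these departures was not tested.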

How the results depend on the processing

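With 1 array per condition and intervals that reached 1.48 to either side, only large differences could pass a test, and 2-fold differences were rare in the brightest genes. The counts changed with scaling, filter and threshold. Under median scaling 1205 genes were higher and 3759 lower at 3 months, 225 were higher at both durations, and the 3-month class held 503 higher and 1544 lower. Higher at 3 months, and in the 3-month class, were 2062 and 953 under quantile normalization, 1481 and 638 under cyclic loess, and 1665 and 794 under normexp, which left 231 higher at both durations. With no filter on dim probes the counts were 6854 higher at 3 months, 2691 higher and 3392 lower at 4 days, 776 higher and 658 lower at both, and 3316 higher in the 3-month class. At 4-fold they were 591 higher and 714 lower at 3 months, 471 and 483 at 4 days, 32 and 68 at both, and 195 and 241 in the 3-month class. At 1.5-fold they were 5133 and 3281, 2890 and 3047, 901 and 882, and 2790 and 1333 in the same order. Against the ND 4 days array of the same slide, an alternative chosen after seeing the data, 1897 were higher. Crossing the pairs gave 323 higher and 367 lower at both durations.

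The oxidation list's 3-month median relative to all genes was 0.093 under quantile normalization, 0.38 under cyclic loess, 0.19 under normexp and 0.50 on slide 2, and its 4-day median was 0.28 with probes well above background on all 20 arrays. limma's count of 0 became 13 with an intensity trend (smallest adjusted p 0.000711), 1 over 20 arrays, and 4 to 14 with 1 anagen array left out of that fit, which leaves the other duration's pair alone and assumes that it varies like telogen. Without the replicate block of duration limma called 0 genes (smallest adjusted p 0.977), and 0 in telogen with the telogen replicate number as a block, a pairing by number alone. A slide block left no residual degrees of freedom in the 4-array fit. Of the named genes' values under the alternatives, 4135 stayed within the gene's telogen SD of the main value, 233 moved further and 10 reversed. A reversal was counted only where the main difference was at least 2-fold, so smaller differences could change sign uncounted. The series table and the percentile over probes well above background on all 20 arrays gave 556 values each, all within that SD. Reversed by the mean over probes were Brca2 (0.54) and Trps1 (-0.018) at 3 months, and Irak3 (0.13), Mbp (-0.56) and Xpc (-0.56) at 4 days. Reversed by cyclic loess were Il2rb (-0.026) and Vwf (-0.076) at 3 months. Reversed with probes well above background on all 20 arrays were Mfsd4a (1.60) and Vldlr (0.25) at 3 months and Il1r2 (0.83) at 4 days. The cause was not tested.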
